A study of Mus musculus with 6 samples.

Results

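Immediate early genes are the 10 genes Fos, Fosb, Jun, Junb, Egr1, Egr2, Ier2, Atf3, Dusp1 and Nr4a1, and each was found by its symbol as 1 row among the 47205 genes of the deposited table. RNA was sequenced from ovaries of mice aged 9 days post partum, in 3 wild-type (WT) libraries and 3 libraries with Srsf1 knocked out in granulosa cells (cKO), the somatic cells that surround each oocyte. Srsf1 encodes a splicing factor. The Cre driver, the strain, any pooling of animals and the time from dissection to lysis are not stated in the sources used here, and nothing more is said of the WT mice. Nothing in the labels says that replicates came from separate animals, so p-values measure only the spread between these libraries, which may be technical.

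Immediate early genes are transcribed within minutes of a stimulus without new protein synthesis, because the factors that switch them on, such as serum response factor with its ETS partners and CREB, are already in the cell and are activated by MAP kinase or cyclic AMP signals. Their mRNAs are short-lived, so that their level follows recent signals to the cell. Growth factors, gonadotropins, mechanical stress and the handling of tissue are all known to induce them. Fos, Fosb, Jun and Junb encode subunits of the dimeric AP-1 transcription factor, and Atf3 a related leucine zipper protein. Egr1 and Egr2 encode zinc finger factors, Nr4a1 an orphan nuclear receptor, Dusp1 a phosphatase that inactivates MAP kinases, and Ier2 a nuclear protein.

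The main feature of the data was the spread of these genes between libraries of the same genotype. WT replicate 3 had the lowest level of the 6 libraries in 9 of the 10 genes, and cKO replicate 1 the highest in 8 of them. No WT against cKO difference passed the test. Each value is in FPKM (fragments divided by gene length in kilobases and by a scaling factor of the library, by the authors), which allows levels of different genes to be compared. Libraries held 16.8 to 18.7 M reads recovered from these values, and mitochondrially encoded genes took 1.67% to 2.32% of them. Srsf1, the targeted gene, stood at 39.9, 49.6 and 46.3 FPKM in WT replicates 1, 2 and 3 and at 20.3, 26.9 and 21.4 FPKM in cKO replicates 1, 2 and 3, without overlap of the groups (log2 fold change -0.96, SE 0.134, limma adjusted p = 0.32). By exact permutation over the libraries (two-sided), p was 0.1 for Srsf1, which is the lowest value possible with 3 libraries a group.

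**Figure D1:**
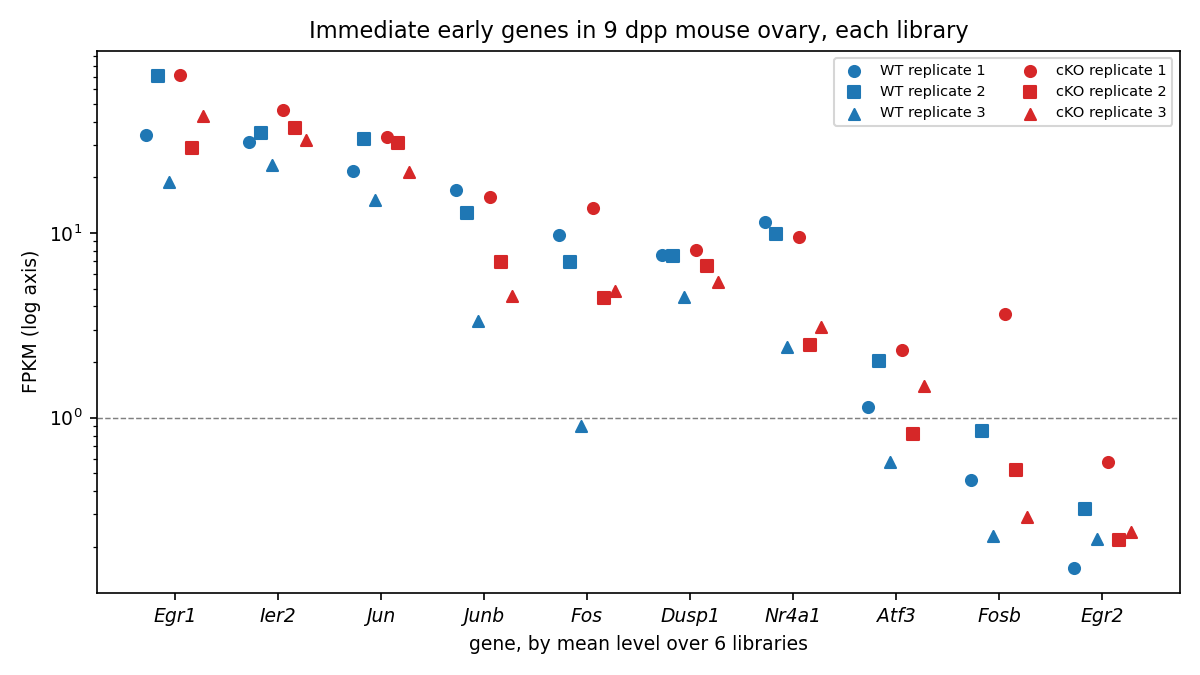
FPKM (log axis) of the 10 immediate early genes in each of the 6 libraries, ordered by their mean, with WT in blue and cKO in red, a marker shape for each replicate number, and a dashed line at 1 FPKM. WT replicate 3 is the lowest point in 9 of the 10 genes, and cKO replicate 1 is the highest in 8.

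Levels spanned from under 1 FPKM to about the level of moderately abundant mRNAs. In WT, the mean over 3 libraries was highest for Egr1 (41.1 ± 26.9 FPKM, SD, n = 3), then Ier2 (29.7 ± 5.84), Jun (23 ± 8.66), Junb (11.1 ± 7.07), Nr4a1 (7.87 ± 4.81), Dusp1 (6.54 ± 1.78), Fos (5.85 ± 4.5), Atf3 (1.25 ± 0.734), Fosb (0.512 ± 0.311) and Egr2 (0.232 ± 0.0843). The WT ranges of every pair of neighbours in this order overlapped. In cKO the order was the same except that Fos (7.63 ± 5.17 FPKM) stood above Dusp1 (6.68 ± 1.31) and Nr4a1 (5.03 ± 3.91) below it. Among neighbours in the cKO order, only the ranges of Jun and Junb and those of Nr4a1 and Atf3 did not overlap. The lengths behind Nr4a1 (7150 bases) and Egr2 (9083 bases) in the deposited table are far above that of Fos (2109 bases), and FPKM of a gene expressed mainly from a shorter transcript is low by that ratio.

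Among the AP-1 subunit genes, Fos (chromosome 12, 85520664 to 85524048, plus strand; positions here are those of the deposited table, GRCm39) stood at 9.69, 6.96 and 0.898 FPKM in WT replicates 1, 2 and 3 and at 13.6, 4.44 and 4.86 FPKM in cKO replicates 1, 2 and 3. The low value of WT replicate 3 rested on 35 reads, with an exact Poisson 95% interval of 0.626 to 1.25 FPKM, and the high value of cKO replicate 1 on 542 reads, with an interval of 12.5 to 14.8 FPKM. Such intervals cover counting error only. The highest WT library was thus 10.8 times the lowest, and the groups overlapped, with 2 of the WT libraries above 2 of the cKO libraries. The cKO minus WT log2 fold change was 0.51 (SE 0.683, 95% interval -1.11 to 2.12, limma adjusted p = 0.897).

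Fosb, which encodes a close relative of the Fos protein (chromosome 7, 19036621 to 19043970, minus strand), was low in all libraries but one. It stood at 0.461, 0.845 and 0.229 FPKM in WT replicates 1, 2 and 3 and at 3.63, 0.524 and 0.289 FPKM in cKO replicates 1, 2 and 3, on 259 reads in cKO replicate 1 and 16 to 58 reads in each other library. Its mean over the 6 libraries, 0.996 FPKM, lay just under the filter of 1 FPKM set for the test. Without a filter its log2 fold change was 0.48 (SE 0.499, limma adjusted p = 0.846).

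Jun, the main partner of Fos in AP-1 (chromosome 4, 94937273 to 94940459, minus strand), was steadier. It stood at 21.7, 32.2 and 15 FPKM in WT and at 32.9, 30.7 and 21.3 FPKM in cKO replicates 1, 2 and 3 (log2 fold change 0.33, SE 0.279, limma adjusted p = 0.853). cKO replicate 2, which was low for Fos, lay near the top for Jun, and WT replicate 1, which was second highest for Fos, lay in the lower part of the range for Jun. Junb, whose product is a weaker activator than Jun and can oppose it (chromosome 8, 85703538 to 85705377, minus strand), stood at 17.1, 12.9 and 3.32 FPKM in WT and at 15.6, 6.93 and 4.56 FPKM in cKO replicates 1, 2 and 3. Here WT replicate 1 was the highest library and WT replicate 3 the lowest, so that all 3 cKO libraries lay inside the WT range (log2 fold change -0.19, SE 0.6, limma adjusted p = 0.959). Atf3, a stress-induced factor that often represses its targets (chromosome 1, 190902493 to 190915530, minus strand), stood at 1.15, 2.03 and 0.575 FPKM in WT and at 2.33, 0.816 and 1.49 FPKM in cKO replicates 1, 2 and 3, on 21 to 87 reads (log2 fold change 0.18, SE 0.308, limma adjusted p = 0.912).

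Egr1, which in the ovary is known as a target of gonadotropin and growth factor signals (chromosome 18, 34994260 to 34998009, plus strand), was the most abundant member by its mean in both groups. It stood at 33.7, 70.9 and 18.7 FPKM in WT and at 71.1, 28.9 and 42.7 FPKM in cKO replicates 1, 2 and 3. WT replicate 2 and cKO replicate 1 shared almost the same high level, with exact Poisson 95% intervals of 68.7 to 73.1 and 68.9 to 73.3 FPKM, and WT replicate 3 was again lowest. The log2 fold change was 0.31 (SE 0.5, 95% interval -0.87 to 1.49, limma adjusted p = 0.911). Egr2, best known for its role in myelinating cells (chromosome 10, 67370334 to 67383354, plus strand), stayed between 0.153 and 0.576 FPKM, on 24 to 99 reads per library, and was below the filter. It was highest in cKO replicate 1 (0.576 FPKM) and, unlike the other members, lowest in WT replicate 1 (0.153 FPKM) rather than WT replicate 3 (0.22 FPKM). The counting intervals of those WT libraries overlapped, at 0.0983 to 0.228 and 0.155 to 0.304 FPKM.

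Nr4a1, also called Nur77, which in steroidogenic cells is known as an early target of cyclic AMP signals (chromosome 15, 101151788 to 101172676, plus strand), split the libraries into high and low. It stood at 11.4, 9.8 and 2.4 FPKM in WT and at 9.53, 2.47 and 3.09 FPKM in cKO replicates 1, 2 and 3. High values occurred in WT replicates 1 and 2 and in cKO replicate 1, and low values in the other 3 libraries, so each genotype held both. Fos, Junb and Dusp1 were also higher in each of these high libraries than in each of the low ones. The remaining members did not divide the libraries this way. The division was taken from the values of Nr4a1, and the share of all genes tested that follow it was not counted. The same limit holds wherever libraries high and low for Nr4a1 are compared below. Mitochondrially encoded genes took 1.67% and 1.80% of the reads in WT replicates 1 and 2 and 1.80% in cKO replicate 1, and 2.08% in WT replicate 3 and 2.32% and 2.18% in cKO replicates 2 and 3, so this share was higher in the libraries low for Nr4a1. The 10 most abundant genes took 3.63%, 4.11% and 3.93% of the reads in the libraries high for Nr4a1 and 4.35%, 4.63% and 4.55% in those low for it. The part of these shares in the levels was not tested. The log2 fold change of -0.53 (SE 0.592, 95% interval -1.93 to 0.87, limma adjusted p = 0.875) was the lowest among the members tested. Dusp1 (chromosome 17, 26724565 to 26727446, minus strand) stood at 7.62, 7.51 and 4.49 FPKM in WT and at 8.03, 6.59 and 5.42 FPKM in cKO replicates 1, 2 and 3, the narrowest range of the 10 genes, with the highest library 1.79 times the lowest (log2 fold change 0.04, SE 0.212, limma adjusted p = 0.975).

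Ier2 (chromosome 8, 85387960 to 85389481, minus strand) came closest to a difference between the genotypes. It stood at 31.1, 34.7 and 23.3 FPKM in WT and at 46.2, 36.9 and 31.7 FPKM in cKO replicates 1, 2 and 3. cKO replicates 1 and 2 lay above every WT library, while cKO replicate 3 lay between WT replicates 1 and 2. The log2 fold change was 0.36 (SE 0.185, 95% interval -0.08 to 0.80), with an unadjusted limma p of 0.0946 and an adjusted p of 0.798.

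**Figure D2:**
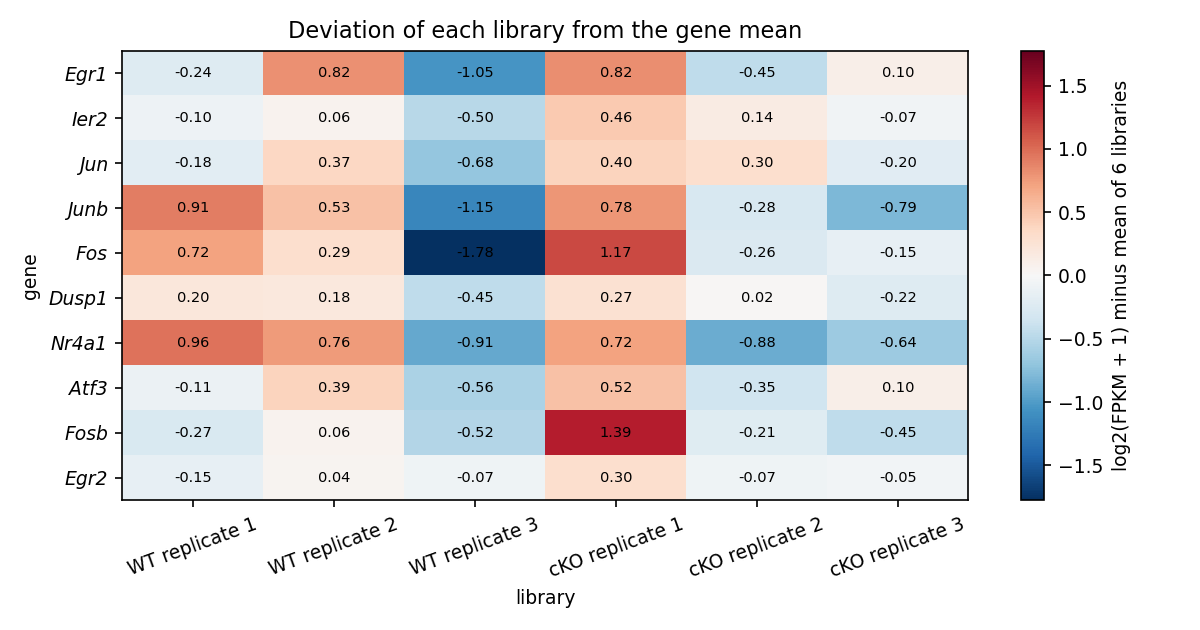
Deviation of each library from the gene's mean over the 6 libraries, in log2(FPKM + 1), for the 10 immediate early genes (rows, ordered by mean level), red above and blue below the mean. The column of WT replicate 3 is negative throughout, from -0.07 for Egr2 to -1.78 for Fos, and that of cKO replicate 1 is positive throughout, up to 1.39 for Fosb.

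The libraries were then compared over the 8 members whose mean reached the filter of 1 FPKM. Fosb and Egr2 did not pass. WT replicate 3 was the lowest library for 8 of the 8, where it was lowest for 12.5% of all 14714 genes tested. cKO replicate 1 was the highest for 6 of the 8, against 13.8% of all genes tested, and both held for 6 of the 8, against 3.32%. These counts describe the libraries and carry no test, since the members share the libraries and tend to respond to the same signals. The median deviation of the 8 members from their means over the 6 libraries was -0.80 in WT replicate 3 and 0.62 in cKO replicate 1 on the log2 scale. In WT replicates 1 and 2 it was 0.05 and 0.38, and in cKO replicates 2 and 3 it was -0.27 and -0.18. Over all genes tested the same median lay between -0.0033 and 0.0128 in every library, where the authors' scaling of the libraries holds it near 0.

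WT replicate 1 and cKO replicate 2 did not order the genes in the same way as the extreme libraries did. WT replicate 1 was the highest of the 6 libraries for Nr4a1 and Junb and lay 0.96 and 0.91 above their means on the log2 scale, but lay below the mean for Egr1 (-0.24), Jun (-0.18), Atf3 (-0.11) and Ier2 (-0.10). cKO replicate 2 lay above the mean for Jun (0.30) and Ier2 (0.14) and below it for Nr4a1 (-0.88) and Egr1 (-0.45). The members thus did not rise and fall as a single block in these libraries.

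The spread within groups was wide against other genes. The SD of log2(FPKM + 1) around the group means had a median of 0.628 over the 8 members tested, beside 0.163 over all genes tested. Fos had the widest spread, 1.10, above 99% of all genes tested. Junb followed with 0.963, Nr4a1 with 0.948 and Egr1 with 0.8, above 98.5%, 98.3% and 97.4% of all genes tested. The spread of Atf3 (0.455) and Jun (0.436) lay above 92.5% and 91.9% of them. Dusp1 (0.315) and Ier2 (0.277) were the steadiest members, yet above 85.4% and 81% of genes. For each of the 8 the difference between the group means was smaller than the range within WT. The share of all genes tested for which this held was not counted, so it does not set the members apart.

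Of the 8 members tested, 0 passed the threshold of an adjusted p of 0.05, where limma called 0.0204% of all genes tested, 0.0068% higher (1 gene) and 0.0136% lower (2 genes) in cKO. At an unadjusted limma p under 0.05 the count of members was also 0, against 6.34% of all genes tested (3.64% higher and 2.7% lower), and limma-voom on the recovered reads gave 0 at either threshold. That count was 1 in 4 of the 17 other settings. The member was Ier2 with library weights (unadjusted limma p of 0.0249 and adjusted p of 0.362), with the replicate block (0.0363 and 0.819) and without cKO replicate 3 (0.048 and 0.656). It was Jun without WT replicate 2 (unadjusted limma p of 0.0433 and adjusted p of 0.999954). Exact two-sided permutation over the libraries gave p of 0.2 for Ier2 and 0.5 to 0.9 for each other member tested. The libraries of the genotypes did not overlap for 0 of the 10 members, where 12.3% of all genes tested showed no overlap. The fold change was above 0 for 6 members and below 0 for 2, Junb and Nr4a1, with a median of 0.25 beside -0.00014 over all genes tested. That median turned with single libraries. Over the same 8 members it was -0.15 without WT replicate 3 and -0.03 without cKO replicate 1, and between 0.25 and 0.45 without any of the other 4. The intervals were wide, and those of Fos and Junb held a change of 1 on the log2 scale in either direction.

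**Figure D3:**
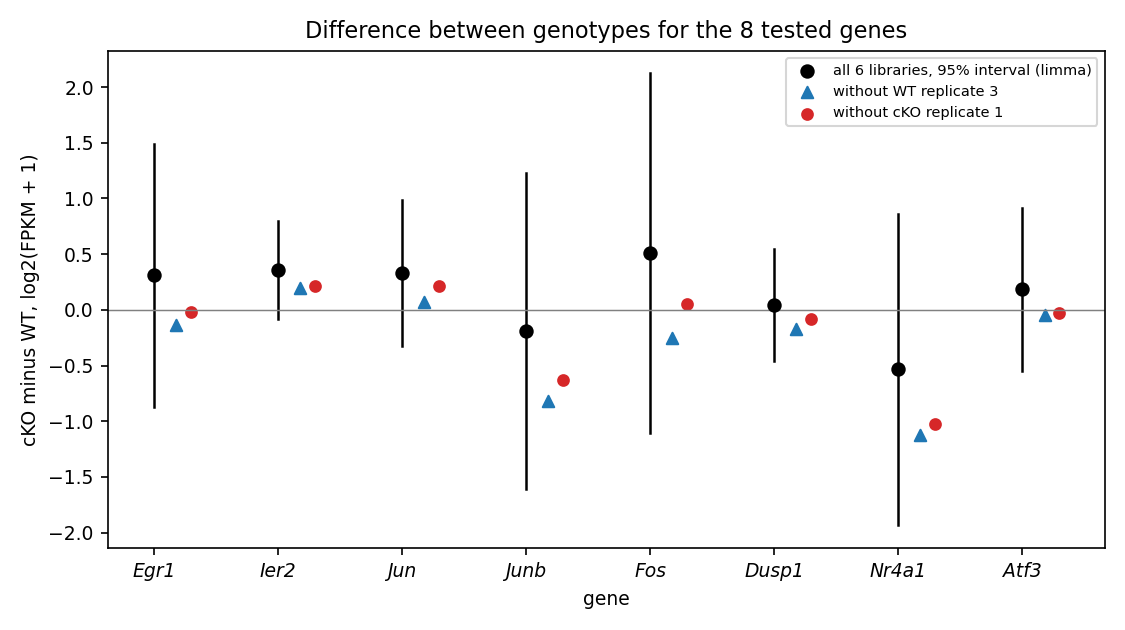
cKO minus WT difference in log2(FPKM + 1) for the 8 immediate early genes tested, with 95% intervals from limma (black, 3 libraries a group), and the same difference without WT replicate 3 (blue triangles) or without cKO replicate 1 (red circles). Every interval spans 0. WT replicate 3 is the lowest WT library and cKO replicate 1 the highest cKO library for each of the 8, so that both sets of points lie below the differences over all libraries by construction.

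Since WT replicate 3 was the lowest WT library for each of the 8 members tested and cKO replicate 1 the highest cKO library, leaving out either had to lower every difference, and only the sizes are given here. Without WT replicate 3 the difference of Fos turned to -0.25, Egr1 to -0.14, Dusp1 to -0.17 and Atf3 to -0.047 on the log2 scale. The difference of Nr4a1 was then -1.12 (SE 0.472, limma adjusted p = 0.805) and that of Junb -0.82 (SE 0.448, limma adjusted p = 0.805). Leaving out cKO replicate 1 gave -1.03 for Nr4a1, -0.63 for Junb, -0.02 for Egr1, -0.08 for Dusp1 and -0.03 for Atf3. Without WT replicate 1, WT replicate 2, cKO replicate 2 or cKO replicate 3, the difference of Nr4a1 was instead -0.19, -0.29, -0.23 or -0.35, and with library weights it was -0.016. Ier2 and Jun kept differences above 0 whichever library was left out, at 0.20 to 0.48 and 0.07 to 0.60.

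The windows before the transcription start show what letters these members share. The CREB family is known to bind the cyclic AMP response element (CRE), TGACGTCA, and, more weakly, its core TGACG. Windows of 250 bases before the start were taken from RefSeq on the build GRCm38.p6, which differs from the build of the positions above, and 8 of the 10 members had an entry (not Egr1 and Ier2). Shown are the 3 members tested with the widest spread in that table (Fos, Junb, Nr4a1), the one with the narrowest range (Dusp1) and Jun, the 1 without a match, each on its own strand with TGACG on either strand in capitals.
Fos (chr12:85473640-85473889, plus strand): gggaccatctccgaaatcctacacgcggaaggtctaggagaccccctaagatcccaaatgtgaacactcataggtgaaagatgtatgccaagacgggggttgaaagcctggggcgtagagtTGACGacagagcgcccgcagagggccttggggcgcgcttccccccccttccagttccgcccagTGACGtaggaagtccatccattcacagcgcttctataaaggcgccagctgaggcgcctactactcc
Junb (chr8:84978749-84978998, minus strand): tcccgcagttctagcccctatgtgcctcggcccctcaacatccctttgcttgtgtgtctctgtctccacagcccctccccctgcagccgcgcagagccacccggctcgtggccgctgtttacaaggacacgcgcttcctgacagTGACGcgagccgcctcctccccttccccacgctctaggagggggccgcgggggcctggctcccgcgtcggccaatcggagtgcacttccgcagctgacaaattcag
Nr4a1 (chr15:101266596-101266845, plus strand): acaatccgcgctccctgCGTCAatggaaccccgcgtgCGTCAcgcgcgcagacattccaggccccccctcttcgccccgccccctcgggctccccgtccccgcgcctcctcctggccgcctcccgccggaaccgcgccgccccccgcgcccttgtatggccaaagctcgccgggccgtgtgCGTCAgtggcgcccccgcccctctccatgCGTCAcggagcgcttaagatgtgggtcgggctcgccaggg
Dusp1 (chr17:26508473-26508722, minus strand): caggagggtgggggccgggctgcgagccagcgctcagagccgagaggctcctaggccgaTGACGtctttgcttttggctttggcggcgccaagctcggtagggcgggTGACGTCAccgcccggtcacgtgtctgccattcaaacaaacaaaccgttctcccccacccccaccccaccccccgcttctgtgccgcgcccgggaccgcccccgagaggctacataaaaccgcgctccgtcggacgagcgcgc
Jun (chr4:95052223-95052472, minus strand): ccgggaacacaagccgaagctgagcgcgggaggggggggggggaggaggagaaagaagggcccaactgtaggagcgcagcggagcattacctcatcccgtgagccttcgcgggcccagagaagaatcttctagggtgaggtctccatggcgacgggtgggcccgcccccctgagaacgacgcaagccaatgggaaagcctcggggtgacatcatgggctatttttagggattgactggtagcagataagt

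At least 1 core TGACG was found on either strand in 7 of the 8 members with an entry, all but Jun, against 19.8% of the 27025 genes of the table. A gene with several start sites was counted once, by any of its windows, as for Egr2. Nr4a1 held 4 cores, Dusp1 3, of which 2 overlap, and Fos 2. The full element TGACGTCA, which contains the core on both strands, was found in Dusp1 alone of the 8 and in 1.77% of all genes. The AP-1 element TGACTCA was in 0 of the 8 and in 5.16% of all genes, and the EGR element GCGTGGGCG in 0 of the 8 and in 0.622%. The CArG box, the element of serum response factor, was in 1 of the 8, Egr2, and in 1.62% of all genes. These matches are descriptions of letters in a short window. The windows of all genes were not matched to those of the members in base composition, so the shares carry no test of enrichment. Elements farther from the start lie outside it.

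Other genes of the pathway were taken from a list. Of 30 further immediate early genes 25 passed the filter, and 0 rose and 0 fell past the adjusted threshold. At an unadjusted limma p under 0.05, 1 was higher and 1 lower, beside 3.64% and 2.7% of all genes tested. The fold change was above 0 for 20 and below 0 for 5, with a median of 0.16. Those with the smallest p were Gadd45b, a stress response gene, at 7.16, 5.39 and 6.93 FPKM in WT and 8.65, 10.6 and 9.21 FPKM in cKO (limma adjusted p = 0.74), and Nr4a2, a relative of Nr4a1, at 2.07, 2.73 and 1.78 FPKM in WT and 1.66, 1.15 and 1.43 FPKM in cKO (limma adjusted p = 0.773). Dusp6, a phosphatase of ERK kinases, and Nfkbia, an inhibitor of NF-kappa B, came next (adjusted p = 0.783 and 0.788). The groups did not overlap for 3 of the 25, Gadd45b, Nr4a2 and Nfkbia, which is 12% beside the 12.3% of all genes tested, and the lowest library was WT replicate 2 for Gadd45b and Nfkbia and cKO replicate 2 for Nr4a2.

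That pattern recurred in part of the list. WT replicate 3 was the lowest library for 11 of the 25 (44%, beside 12.5% of all genes tested). For 9 the highest was cKO replicate 1 (36%, beside 13.8%), and both held for 6 (beside 3.32% of all genes tested). Named after their values were seen, Sik1, a kinase gene induced by cyclic AMP, stood at 25.6, 26.1 and 7.45 FPKM in WT and 18.9, 8.34 and 10.4 FPKM in cKO, high and low in the same libraries as Nr4a1. Btg2, an antiproliferative gene, stood at 21.5, 15.6 and 6.78 FPKM in WT and 19.6, 11.9 and 13.3 FPKM in cKO. Btg2 too was higher in each library high for Nr4a1 than in each library low for it. Zfp36, whose product destabilises AU-rich mRNAs, stood at 9.21, 11.2 and 6.62 FPKM in WT and 16.8, 10.3 and 7.5 FPKM in cKO. Myc, in contrast, ran only from 12.1 to 15.5 FPKM over the 6 libraries.

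The proteins that act with or before the members varied less at the mRNA level. Genes of AP-1 dimer partners had a median within-group SD of 0.189 over 10 tested of 12, with Jund, the constitutive family member, at 92.2 to 135 FPKM and Fosl2 at 14.5 to 26.4 FPKM. Those of upstream regulators, among them Srf, Creb1 and the ERK kinases, had a median SD of 0.118 over 17, below the 0.163 of all genes tested. A list of corepressor and mRNA decay genes, which also held MAP kinase phosphatases and feedback inhibitors such as Dusp7 and Spry2, had 0.158 over 11 tested of 12. In these 3 lists 0 genes rose and 0 fell past the adjusted threshold. At an unadjusted limma p under 0.05, met by 6.34% of all genes tested, only Spry2, a feedback inhibitor of receptor signalling, differed. Spry2 was higher in cKO, at 3.15, 4.47 and 3.94 FPKM in WT and 4.62, 6.79 and 4.98 FPKM in cKO (limma adjusted p = 0.773).

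Heat shock genes, which stress and warmth are also known to induce, had a median SD of 0.13 over 12. WT replicate 3 was the lowest library for 1 of the 12 (8.33%, beside 12.5% of all genes tested). The highest was cKO replicate 1 for 3 (25%, beside 13.8%), Hspa1a, Hspa1b and Dnajb1. Hspb1 was instead highest in cKO replicate 2 and Hsph1 in WT replicate 2. Hspa1a, the inducible HSP70 gene, stood at 0.934, 2.36 and 2.55 FPKM in WT and at 3.35, 2.49 and 1.15 FPKM in cKO, and its near-identical copy Hspa1b, with which it can share reads, at 3.06 to 4.87 FPKM. Dnajb1, an HSP40 cochaperone gene, ran from 23.4 to 29.7 FPKM. Of the 12, 0 passed the adjusted threshold. An unadjusted limma p under 0.05 was met by 2 of them, beside 6.34% of all genes tested. They were Hspb1 (higher in cKO, limma adjusted p = 0.768) and Hsph1 (lower, limma adjusted p = 0.771).

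**Figure D4:**
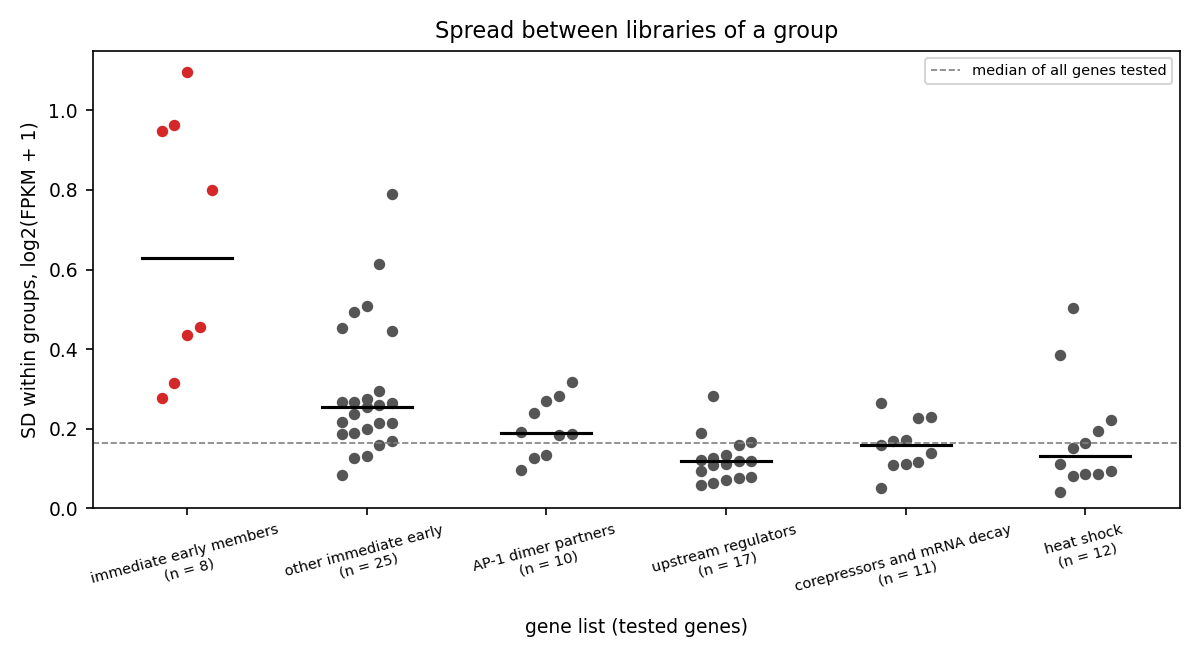
SD within groups of log2(FPKM + 1) for each tested gene of 6 lists (points, with the number of genes under each list, bars at the median), and the median of all genes tested (dashed, 0.163). The immediate early genes (red) have a median of 0.628, and the other 5 lists have medians from 0.118 to 0.255.

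Markers of other cells also differed between the libraries. The 10 macrophage and leukocyte markers and the 10 interferon response genes were each highest in cKO replicate 1 in 10 of 10. Of all genes tested, 13.8% were highest in that library, which was also highest for most immediate early genes. The summed level of the leukocyte markers was 32.4 to 51.8 FPKM in WT and 76.1 to 218 FPKM in cKO. That of the interferon genes was 95.2 to 124 FPKM in WT and 129 to 676 FPKM in cKO. No marker of these lists was at 0 in any library. In WT both sums were highest in WT replicate 3 (51.8 and 124 FPKM), the library lowest for most immediate early genes. Smooth muscle markers, taken over all 7, of which 6 were tested, summed to 128, 121 and 189 FPKM in WT replicates 1, 2 and 3. In cKO replicates 1, 2 and 3 they summed to 88.3, 195 and 102 FPKM. The sum was highest in WT replicate 3 and cKO replicate 2, both low for Nr4a1, while cKO replicate 3, also low for Nr4a1, lay below WT replicates 1 and 2. Red blood cell markers, 5 tested (globin genes and Alas2), summed to 189, 182 and 333 FPKM in WT replicates 1, 2 and 3 and to 157, 240 and 572 FPKM in cKO replicates 1, 2 and 3. Their sum was thus higher in each of the 3 libraries low for Nr4a1 than in the 3 high for it. In this sum WT replicate 3 stood above the other WT libraries. Taken singly, Hba-a1 and Hbb-bt divided the libraries in this way, while Hbb-bs, Hba-a2 and Alas2 did not. Hba-a2 was lowest in WT replicate 3, at 2.02 FPKM. Endothelial markers summed to 157 to 162 FPKM in WT and 182 to 188 FPKM in cKO. Taken singly, the groups did not overlap for 3 of these 8 markers (37.5%, beside 12.3% of all genes tested). An unadjusted limma p under 0.05 was met by 0 of the 8, beside 6.34% of all genes tested. The part of these cells in the values of the immediate early genes was not tested. Granulosa markers, summed, ran from 733 to 826 FPKM in WT and from 593 to 691 FPKM in cKO, and oocyte markers from 1906 to 2061 and from 1896 to 2093 FPKM. Surface epithelium markers summed to 167 to 206 FPKM in WT and 237 to 334 FPKM in cKO. In whole ovaries fewer cells of a type and less RNA per cell cannot be told apart.

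The genes whose pattern over the 6 libraries was most like that of the members were sought among 9105 other protein-coding genes at a mean of 5 FPKM or more, by Pearson correlation with the mean standardised profile of the 8 members tested. The 5 highest were Th (tyrosine hydroxylase, r = 0.985), Pprc1 (a coactivator related to PGC-1, r = 0.973), Dgkz (a diacylglycerol kinase, r = 0.973), Atp2c2 (a Golgi calcium pump, r = 0.972) and Plbd2 (a lysosomal protein, r = 0.967). Th stood at 19.7, 20.1 and 13.4 FPKM in WT and at 23.4, 17.7 and 17.8 FPKM in cKO, a far narrower range than that of Fos. With 6 libraries and so many genes searched, such values are a description only, and they carry no test. Of the other immediate early genes in the search, Klf2 (r = 0.947), Btg2 (0.896) and Zfp36 (0.887) were the most alike. They lay above 99.8%, 99.4% and 99.2% of the genes searched. Values below 0 were found for Ier5 (-0.023), Gadd45b (-0.111), Myc (-0.173), Nfkbia (-0.302), Gadd45g (-0.339) and Klf10 (-0.391). The rest lay between, from 0.811 for Sik1 down to 0.093 for Socs3. The other immediate early genes given here were picked after their correlations were seen.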

How the data were processed

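Ovary RNA of 6 libraries (3 WT, 3 cKO) was measured by RNA sequencing. The authors deposited FPKM values, 1 column per library. HISAT2 2.0.5 is named in the submitters' processing notes, as are mm10 and GRCm39, with no role for either. The chromosome accessions of the table are those of GRCm39. Counter, annotation release and strandedness are not stated in the sources used here, so reads of antisense or overlapping genes cannot be told apart.

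FPKM times gene length was a whole multiple of 1 step per library (100% of values within 0.01 of a whole number), which gave back reads. The denominators matched median-of-ratios size factors (ratio 1 in each library), so the authors had already scaled the libraries to each other. A single read in a gene of 1 kb was worth 0.052 to 0.0581 FPKM.

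Values were tested as log2(FPKM + 1), which understates changes of low genes, with limma 3.58.1 in R 4.3.3 (trend in the prior variance, two-sided) over the 14714 genes whose mean reached 1 FPKM, with Benjamini-Hochberg adjustment. The procedure was tested on simulated data. Group values are mean ± SD. All members were named, then Srsf1, up to 4 genes per list with the smallest p (fewer are given here) and the 5 genes most like the members in pattern. Members and lists were chosen with earlier results of these data known. Replicate numbers were taken from the labels. Alternatives were pseudocounts of 0.1 and 0.5, filters, scalings, limma-voom, priors, weights, a replicate block and left-out libraries.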

Additional observations from a re-analysis of the deposited data

How the results depend on the processing

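No immediate early gene passed the adjusted threshold in any of the 17 alternative settings. The median log2 fold change of the members was 0.21 to 0.44 in 11 settings with all libraries, and -0.14 to 0.48 with a library left out, over the 7 to 10 members each setting tested (-0.15 to 0.45 over the same 8 with a library left out). With library weights the difference of Junb turned to 0.22, the cause not tested. With a library left out, Junb ran from -0.82 to 0.22, Fos from -0.25 to 0.99, Egr1 from -0.14 to 0.80, Atf3 from -0.047 to 0.43, Dusp1 from -0.17 to 0.17 and Nr4a1 from -1.12 to -0.19. Nr4a1 stood at -0.016 with library weights. Ier2 reached an unadjusted limma p of 0.0249 with library weights (adjusted p = 0.362, against 0.362 to 0.862 in the settings with all libraries). Over all genes, 1 gene was higher in cKO, against 0 by limma-voom, quantile normalization, protein-coding genes only, the replicate block, either other pseudocount and either other filter, and 3 with library weights. Against 2 lower, there were 0 by limma-voom, the replicate block and no filter, and 1 with protein-coding genes only. Leaving out a library gave 0 to 1 higher and 0 to 1 lower. Srsf1 stayed between -0.88 and -1.08.

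Over all genes tested the replicate numbers showed no clear pairing of the libraries, which does not settle it for single genes. Deviations of same-numbered libraries had correlations across genes of 0.18, -0.08 and -0.06. Not every library correlated best with its own number. With the replicate block 0 genes were higher and 0 lower. Each replicate number holds a library of each genotype, so the block leaves every fold change as it was by construction. Srsf1 thus stayed at -0.96 and the median of the members at 0.25. Only the SE and p could change. The SE fell for Junb (0.6 to 0.238), Fos (0.683 to 0.421) and Nr4a1 (0.592 to 0.384). It also fell for Jun (0.279 to 0.155), Dusp1 (0.212 to 0.119) and Ier2 (0.185 to 0.123). For Egr1 (0.5 to 0.522) and Atf3 (0.308 to 0.332) it rose.

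Depth limits Fosb, Egr2 and Atf3, with as few as 16, 24 and 21 reads in a library.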
